A study of Mus musculus with 9 samples.

Results

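Receptors through which a cell senses cytokines and ligands of the tumour necrosis factor (TNF) family were examined in Hepa 1-6 cells, a mouse hepatoma line. The genes were taken from the deposited count table by symbol: protein-coding rows named as interleukin, interferon alpha/beta or gamma, and colony-stimulating factor receptors or as numbered members of the TNF receptor superfamily, together with Ltbr, Lifr, Il6st, Osmr and Fas. This gave 73 genes of the 53647 listed. The symbol pattern also takes in Il1rn, which encodes a secreted antagonist of the interleukin-1 receptor and not a receptor. The rule uses names only and no measured value.

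The groups were cells in which Usp5 had been knocked out (3 samples), cells in which Ythdf1 had been knocked out (3 samples) and cells with a control guide (3 samples). All 9 samples came from the same line, grown in serum-containing medium, and the labels name no cytokine treatment. Per the labels' protocols, Ythdf1 was targeted with CRISPR/Cas9/EGFP plasmids and Usp5 with a lentiviral CRISPR vector, and knockout clones were grown from single cells by dilution and checked by immunoblot. The labels do not say how many clones stand behind the 3 samples of a group or whether the control cells are a clone. A difference between clones or in the vector used and an effect of the lost protein therefore cannot be told apart. The design asks which immune genes respond alike to the loss of Usp5, a deubiquitinase, and of Ythdf1, a reader of N6-methyladenosine in mRNA.

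Class I and class II cytokine receptors have no kinase of their own and signal through bound Janus kinases (JAKs) to STAT transcription factors, usually as pairs of a ligand-specific chain and a shared chain. Interleukin-1 and interleukin-17 receptors recruit adaptor proteins through a cytoplasmic domain instead. Receptors of the TNF family either carry a death domain, which can start apoptosis through FADD and caspase-8, or bind TRAF adaptors that lead to NF-kB and JNK. Some are decoys that bind a ligand without signalling. Hepatocytes are classical targets of interleukin-6, interferons, interleukin-22 and TNF, which control their acute phase, antiviral, regenerative and death responses.

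The libraries held between 24760877 and 42989715 counts. Levels are in CPM, counts scaled to library size with TMM factors, and log2 fold changes are given ± their standard error (SE). The transcript of Usp5 had 123, 113 and 110.4 CPM in the Usp5 knockout, against 234, 224 and 184 CPM in control cells (-0.89 ± 0.11, edgeR adjusted p = 0.000316). Knockout of that gene rests on the immunoblot, since its transcript was reduced and still present. The transcript of Ythdf1 had 49.2, 45.7 and 49.9 CPM in the Ythdf1 knockout, against 190.2, 181 and 195 CPM in control cells (-1.97 ± 0.074, edgeR adjusted p = 1.21e-07). Mitochondrial genes took 3.67%, 6.14% and 4.04% of the counts in the Usp5 knockout, 3.897%, 4.96% and 3.51% in the Ythdf1 knockout, and 2.33%, 2.32% and 5.91% in control cells, so all 6 knockout samples and control replicate 3 were above control replicates 1 and 2. Control replicate 3 also had the lowest depth, and its counts lay nearer to those of the Usp5 knockout than to those of the other controls: the chi-square per gene between libraries was 105, 54.3 and 41 against Usp5 knockout replicates 1, 2 and 3, 157, 96.9 and 167 against those of the Ythdf1 knockout, and 139 and 121 against control replicates 1 and 2. Within groups it was 14.6 between control replicates 1 and 2, 42.2 to 59.2 in the Usp5 knockout and 3.43 to 25.5 in the Ythdf1 knockout. The part of control replicate 3 and of the mitochondrial share in the results was not tested beyond leaving that sample out. That of the unequal spread within groups was not tested. All 10 hepatocyte or hepatoma markers were tested, and they summed to 3154 to 3531 CPM in the Usp5 knockout, 4100 to 4344 CPM in the Ythdf1 knockout and 2669 to 2726 CPM in control cells. All 4 epithelial markers were tested, with sums of 2276 to 2381 CPM in the Usp5 knockout, 2408 to 2678 CPM in the Ythdf1 knockout and 1849 to 2124 CPM in control cells. Of 12 leukocyte markers, 4 were tested, and Cd3e, Nkg7 and Tyrobp had 0 counts in all 9 samples. Without Csf1r, which is also a receptor examined here, that list summed to 4.78 to 5.98 CPM in the Usp5 knockout, 9.22 to 10.4 CPM in the Ythdf1 knockout and 6.20 to 9.94 CPM in control cells. The part of such cells in the receptor levels was not tested, and in bulk RNA fewer cells of a type and less RNA per cell cannot be told apart. Endothelial markers, of which 2 of 7 were tested, summed to 1.49 to 2.63 CPM over all samples, with Emcn at 0. Stellate and fibroblast markers summed to 1084 to 1415 CPM in the Usp5 knockout, 1062 to 1290 CPM in the Ythdf1 knockout and 856 to 1268 CPM in control cells. Of these 8 markers only 3 were tested, so the sum does not describe the list as a whole. Their log2 fold changes ran from -0.50 to 0.31 in the Usp5 knockout, with 0 called. In the Ythdf1 knockout they ran from -1.46 to 0.72, with 1 called lower.

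Of the 73 genes, 39 had enough counts to be tested and 34 did not. None of the untested genes exceeded 19 counts in any sample, and 7 of them had 0 counts in all 9 (Il12rb2, Il23r, Il1r2, Il1rapl1, Il1rl2, Il22ra2 and Tnfrsf17). The untested genes included the lymphoid chains Il2ra, Il2rg, Il7r, Il9r and Il21r, the myeloid chains Csf2ra, Csf2rb, Csf2rb2, Csf3r, Il3ra and Il5ra, the interleukin-18 receptor chain Il18r1, and the TNF receptors Tnfrsf4, Tnfrsf8, Tnfrsf13b, Tnfrsf13c and Tnfrsf17, which are best known from lymphocytes. Also untested were Il10ra, Il11ra2, Il13ra2, Il1rapl2, Il1rl1, Il17rb, Il17re, Il27ra, Il31ra, Tnfrsf11a and Tnfrsf25.

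Levels of different genes were compared per length, as CPM per kilobase of the gene length in the deposited table. In control cells, 14 of the 39 tested genes were at 10 or more and 31 at 1 or more CPM per kilobase. Tnfrsf12a, the receptor for TWEAK, was highest at 172 ± 42.9 CPM per kilobase (SD, n = 3), followed by the lymphotoxin beta receptor Ltbr at 80.8 ± 4.71. The interferon-gamma receptor chain Ifngr1 (52.5 ± 1.01), the mouse decoy receptor Tnfrsf22 (51.7 ± 12) and the main TNF receptor Tnfrsf1a (47.3 ± 1.65) came next. The control range of Tnfrsf22 overlapped with those of Ifngr1 and Tnfrsf1a, so its place between them is not fixed. Further down stood Ifnar1 (23.8), Ifnar2 (21.5), Lifr (15), the shared signalling chain Il6st (12.8) and Fas (5.2 CPM per kilobase). Of the 38 pairs of neighbours in this order, 14 had control ranges that did not overlap. In CPM, Tnfrsf22, Tnfrsf12a and Ltbr together made up 42.8% of the summed level of the 73 genes in the Usp5 knockout, 47.7% in the Ythdf1 knockout and 39.8% in control cells.

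**Figure D1:**
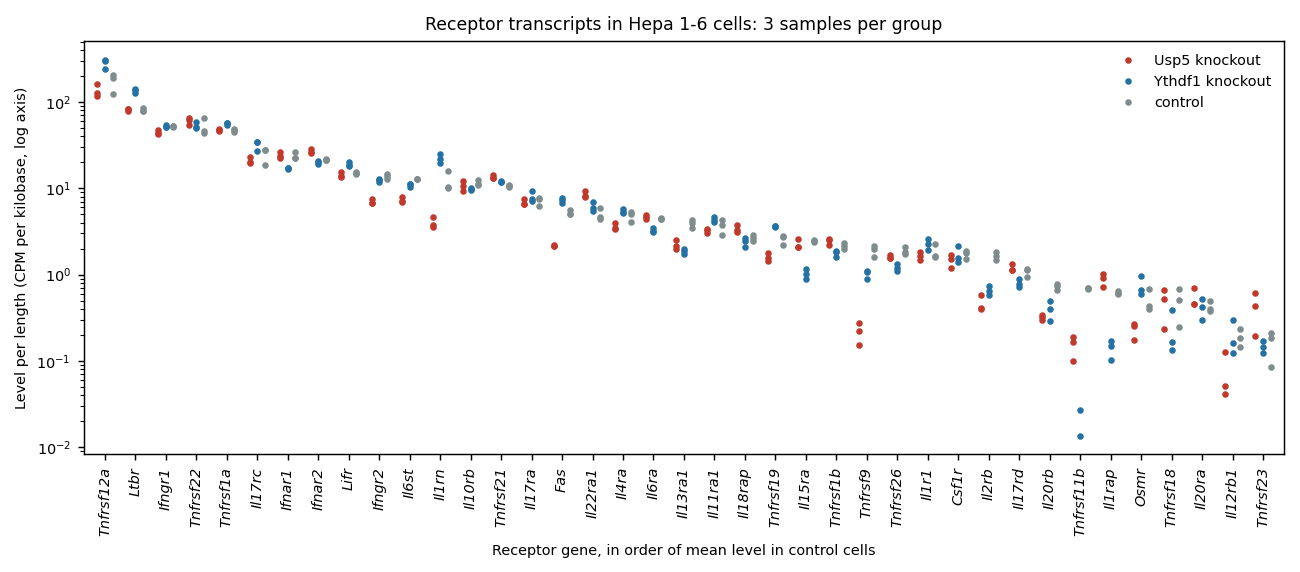
Levels per length (CPM per kilobase, log axis) of the 39 tested receptor genes in each of the 9 samples, in order of their mean in control cells; each point is 1 sample, and the Ythdf1 knockout sample with 0 counts of Tnfrsf11b is not drawn. Tnfrsf12a is highest in control cells at 172 CPM per kilobase, and the columns of Fas, Tnfrsf9, Tnfrsf11b and Il1rap show groups that all stand apart. For Il2rb control cells stand above both knockouts, which overlap.

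Against control, more receptor genes fell than rose in the Usp5 knockout. Other settings are named below only where they end a call or move its value by more than 1.5 times, and the correction for GC content and length, added after results were known, removes smooth trends of the counts on both. Of the 39 tested, 17 were called at an edgeR adjusted p under 0.05 (43.6%), 4 higher and 13 lower, beside 19.8% of all 13661 genes tested (9.96% higher and 9.8% lower). With library sizes alone as the scaling, 2 were higher and 13 lower. At least 2-fold changes were called for 8 of them (1 higher and 7 lower), beside 5.64% of all genes (2.29% higher and 3.35% lower). The samples of the knockout and of control cells did not overlap for 20 of the 39, beside 33.2% of all genes. Over the 39 the median log2 fold change was -0.15, beside -0.012 over all genes tested. Without control replicate 3, 19 were called, while the count over all genes went to 4371 in place of 2700.

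The Ythdf1 knockout had 19 called receptor genes of 39 (48.7%), 7 higher and 12 lower, beside 46.5% of all genes (23.7% higher and 22.8% lower), a share near this background. With library sizes alone 4 were higher and 16 lower, and without control replicate 3, 23 were called, with 6459 in place of 6350 genes in all. All 5 called changes of at least 2-fold were downward, beside 9.15% of all genes (4.41% higher and 4.74% lower). The groups did not overlap for 23 of the 39, beside 57.1% of all genes. The median was -0.036, beside 0.021 over all genes. Both comparisons use the same 3 control samples. Gene by gene, 6 receptor genes were lower in both knockouts (Il2rb, Il13ra1, Il6st, Il20rb, Tnfrsf9 and Tnfrsf11b). Fas, Il1rn and Tnfrsf19 were lower in the Usp5 knockout and higher in the Ythdf1 knockout. The Ythdf1 knockout calls of Il6st and Tnfrsf19 ended under at least 1 alternative, named below. How many of all genes were called in both knockouts was not counted, so these joint numbers have no background beside them.

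**Figure D2:**
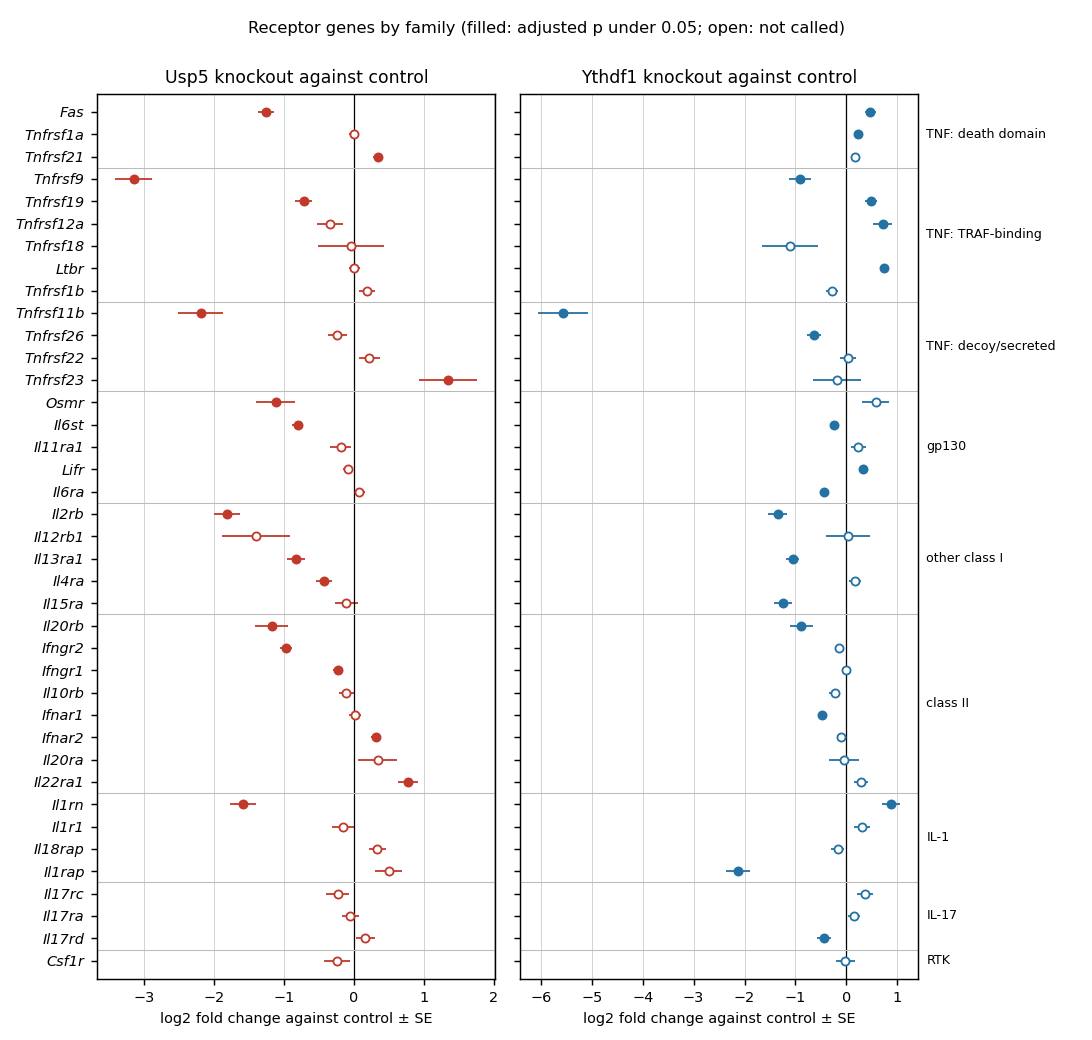
Log2 fold changes against control with their SE for the 39 tested receptor genes, by family, in the Usp5 knockout (left) and the Ythdf1 knockout (right); filled points were called at an adjusted p under 0.05 and open points were not, and the horizontal scales differ. In the Usp5 knockout 13 filled points lie below 0 and 4 above, and in the Ythdf1 knockout 12 lie below 0 and 7 above.

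Among TNF receptors with a death domain, Fas moved in opposite directions in the knockouts while the main TNF receptor was not called in the Usp5 knockout. Fas, the receptor for Fas ligand and a starter of apoptosis, stood at 3.17, 3.18 and 3.24 CPM in the Usp5 knockout, 10.7, 9.99 and 11.2 CPM in the Ythdf1 knockout and 7.31, 8.22 and 7.37 CPM in control cells. No sample of one group reached into the range of another. Its log2 fold change was -1.26 ± 0.11 in the Usp5 knockout (edgeR adjusted p = 3.97e-05) and 0.48 ± 0.11 in the Ythdf1 knockout (edgeR adjusted p = 0.00422). Set directly against the Ythdf1 knockout, the Usp5 knockout was lower (-1.73 ± 0.11, edgeR adjusted p = 2.12e-06). Tnfrsf1a, through which TNF acts on most cells, had 105, 102 and 97.7 CPM in the Usp5 knockout. The Ythdf1 knockout had 121, 116 and 122 CPM, and control cells had 104, 97.3 and 103 CPM. It was not called in the Usp5 knockout (log2 fold change 0.003 ± 0.067, 95% interval -0.13 to 0.14). The small rise in the Ythdf1 knockout (0.24 ± 0.067, edgeR adjusted p = 0.0149) was not called with library sizes alone as the scaling (0.097, adjusted p = 0.283), or without a filter on low counts (0.19, adjusted p = 0.176), or after the correction for GC content and length (-0.071, adjusted p = 0.418), or when 1 of control replicate 2 and Ythdf1 knockout replicates 1 and 3 was left out (0.19 to 0.21, adjusted p from 0.0635 to 0.0986). Tnfrsf21, also known as death receptor 6, rose in the Usp5 knockout, with 49.9, 46.7 and 46.7 CPM in the Usp5 knockout, against 37.5, 36.5 and 38.8 CPM in control cells (0.35 ± 0.07, edgeR adjusted p = 0.00692). It was at 0.17 in the Ythdf1 knockout and not called (edgeR adjusted p = 0.0727). The remaining member, Tnfrsf25, was not tested.

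The TRAF-binding TNF receptors contained the steepest fall of a signalling receptor in the Usp5 knockout. Tnfrsf9, which encodes the T cell co-stimulator 4-1BB (CD137), had 0.305, 0.21 and 0.385 CPM in the Usp5 knockout. Levels were 1.22, 1.53 and 1.51 CPM in the Ythdf1 knockout and 2.22, 3.02 and 2.78 CPM in control cells. All 3 groups were apart, with the Usp5 knockout lowest and control cells highest. Its log2 fold change was -3.14 ± 0.26 in the Usp5 knockout (edgeR adjusted p = 2.76e-05) and -0.91 ± 0.22 in the Ythdf1 knockout (edgeR adjusted p = 0.00729). The counts behind it were low, 29 in the Usp5 knockout and 113 in the Ythdf1 knockout against 299 in control cells, each over 3 libraries. Tnfrsf19 (TROY), an orphan member of the family, had 5.28, 5.67 and 6.47 CPM in the Usp5 knockout. Ythdf1 knockout samples had 13.5, 13 and 13.5 CPM, and control samples had 10.2, 10.1 and 8.13 CPM. The Usp5 knockout samples lay below and the Ythdf1 knockout samples above every control sample. It fell in the Usp5 knockout (-0.72 ± 0.12, edgeR adjusted p = 0.00283) and rose in the Ythdf1 knockout (0.49 ± 0.12, edgeR adjusted p = 0.00768). The rise was not called with library sizes alone as the scaling (0.34, adjusted p = 0.0669).

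The signalling members with the highest levels per length both rose in the Ythdf1 knockout. Ltbr, the receptor for lymphotoxin and LIGHT and an activator of the alternative NF-kB pathway, stood at 173, 162 and 171 CPM in the Usp5 knockout. It had 287, 262 and 292 CPM in the Ythdf1 knockout and 179, 163 and 162 CPM in control cells. The Ythdf1 knockout samples were all above the others, and the Usp5 knockout overlapped with control cells. Its log2 fold change in the Ythdf1 knockout was 0.74 ± 0.078 (edgeR adjusted p = 6.52e-05), and 0.35 after the correction for GC content and length, in which the call was kept. In the Usp5 knockout it was 0.0054 ± 0.078 (95% interval -0.15 to 0.16). Ltbr and Tnfrsf1a lie on chromosome 6 as Usp5 does, with 24 protein-coding genes between Usp5 and Ltbr. Tnfrsf12a (Fn14) had 157, 125 and 115 CPM in the Usp5 knockout. This compares with 294, 233 and 303 CPM in the Ythdf1 knockout and 200.02, 183 and 121 CPM in control cells. It rose in the Ythdf1 knockout (0.72 ± 0.19, edgeR adjusted p = 0.0101) but was not called after the correction for GC content and length (0.24, adjusted p = 0.0806), or without Ythdf1 knockout replicate 3 (0.62, adjusted p = 0.0502). The control samples of this gene were spread, with control replicate 3 at the level of the Usp5 knockout. Tnfrsf1b, the second TNF receptor, stood at 9.75, 9.73 and 8.4 CPM in the Usp5 knockout, 6.07, 6.89 and 7.14 CPM in the Ythdf1 knockout and 8.16, 7.55 and 8.86 CPM in control cells. It was called in neither knockout against control, and was higher in the Usp5 than in the Ythdf1 knockout (0.47 ± 0.12, edgeR adjusted p = 0.00841). Tnfrsf18 (GITR), at 0.153 to 0.789 CPM over all samples, was called in no comparison.

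**Figure D3:**
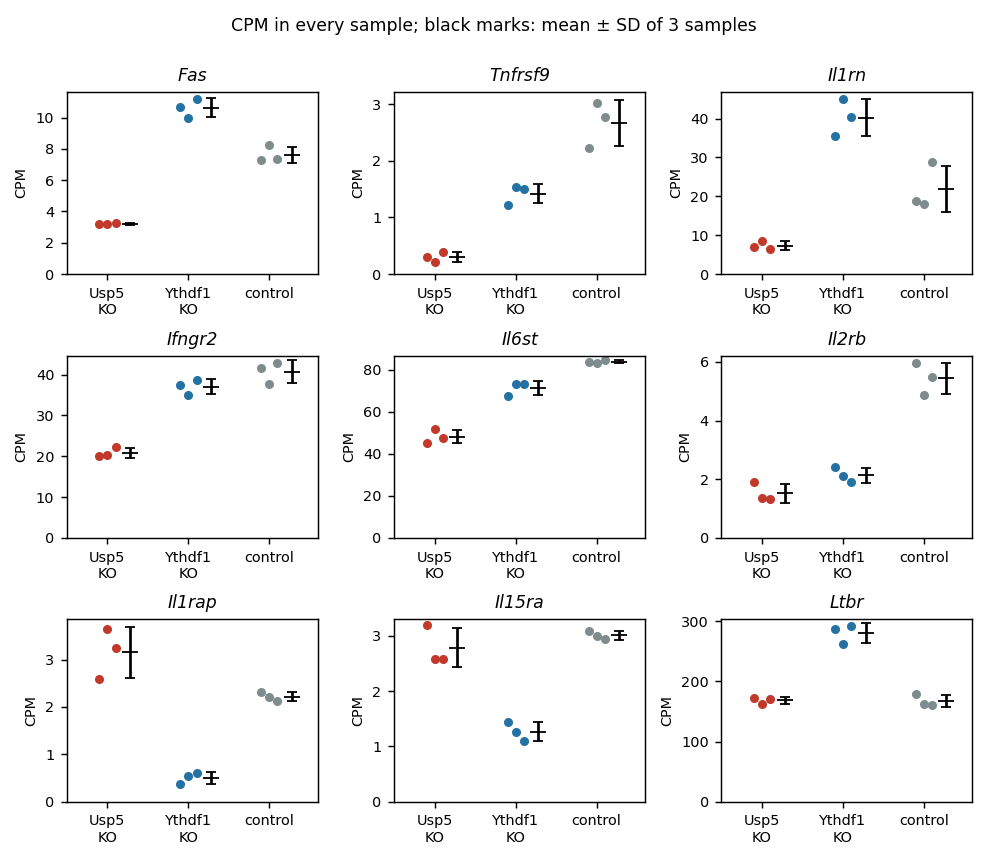
CPM of 9 receptor genes in every sample, with black marks for the mean and SD of 3 samples; each axis starts at 0. Fas and Il1rn are lowest in the Usp5 knockout and highest in the Ythdf1 knockout, Tnfrsf9, Il6st and Il2rb are below control cells in both, Ifngr2 is lower in the Usp5 knockout, Il1rap and Il15ra are lower in the Ythdf1 knockout, and Ltbr is higher in the Ythdf1 knockout.

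Of the 4 decoy or secreted TNF receptors, osteoprotegerin changed most. Tnfrsf11b, which encodes this secreted decoy for the bone-resorption ligand RANKL, had 20, 8 and 14 counts in the Usp5 knockout, 0, 1 and 2 counts in the Ythdf1 knockout and 89, 86 and 48 counts in control cells. In CPM it stood at 0.47, 0.28 and 0.539 CPM in the Usp5 knockout. The Ythdf1 knockout had 0, 0.0383 and 0.0756 CPM, and control cells had 1.98, 2.00 and 1.93 CPM. Every control sample was above every knockout sample. The log2 fold change was -2.18 ± 0.32 in the Usp5 knockout (edgeR adjusted p = 0.00105). In the Ythdf1 knockout, where the fitted value rests on 3 counts, control cells were higher by a ratio of 52.4 with an exact 95% counting interval of 17.7 to 256 (edgeR adjusted p = 2.38e-05); the interval covers counting error only. Tnfrsf22, Tnfrsf23 and Tnfrsf26 are neighbours on chromosome 7 with no other protein-coding gene between them, and as related genes they can share reads, so their values are uncertain. Tnfrsf22, a mouse decoy for TRAIL, had 226, 256 and 273 CPM in the Usp5 knockout. Levels were 207, 243 and 213 CPM in the Ythdf1 knockout and 183, 190.3 and 273 CPM in control cells. It was called in no comparison. Tnfrsf26 fell in the Ythdf1 knockout, with 3.37, 4.1 and 3.63 CPM in the Ythdf1 knockout, against 5.27, 5.53 and 6.44 CPM in control cells (-0.63 ± 0.14, edgeR adjusted p = 0.00383; -0.33 after the correction for GC content and length). Tnfrsf23, at 2.04, 1.47 and 0.655 CPM in the Usp5 knockout, against 0.622, 0.697 and 0.282 CPM in control cells, was called higher in the Usp5 knockout (1.35 ± 0.42, edgeR adjusted p = 0.0464), although the groups overlapped. That call was not made with library sizes alone as the scaling (1.25, adjusted p = 0.0581), or in a fit of only both groups (1.34, adjusted p = 0.0936), or in limma-voom (1.31, adjusted p = 0.0647), or when 1 of control replicates 1, 2 and 3, Usp5 knockout replicates 1 and 2 and Ythdf1 knockout replicates 1, 2 and 3 was left out (0.94 to 1.56, adjusted p from 0.0637 to 0.186).

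The receptors that signal through gp130 had less of their shared chain in the Usp5 knockout, while Il6ra, Lifr and Il11ra1 were not called there. Il6st, which encodes gp130, the signalling chain for interleukin-6, interleukin-11, leukaemia inhibitory factor and oncostatin M, stood at 45.4, 51.6 and 47.5 CPM in the Usp5 knockout. Ythdf1 knockout samples had 67.7, 73.4 and 73.4 CPM, and control samples had 83.7, 83.4 and 84.9 CPM. The 3 groups did not overlap. Its log2 fold change was -0.80 ± 0.075 in the Usp5 knockout (edgeR adjusted p = 5.44e-05). The smaller fall in the Ythdf1 knockout (-0.23 ± 0.074, edgeR adjusted p = 0.0258) was not called after the correction for GC content and length (0.051, adjusted p = 0.585), or when 1 of control replicates 1 and 2 and Ythdf1 knockout replicate 1 was left out (-0.24 to -0.23, adjusted p from 0.0582 to 0.0728), and with library sizes alone it was -0.37. Osmr, the oncostatin M receptor chain, fell in the Usp5 knockout, with 0.963, 1.4 and 1.46 CPM in the Usp5 knockout, against 2.2, 2.39 and 3.7 CPM in control cells (-1.11 ± 0.28, edgeR adjusted p = 0.0198), but was not called when 1 of Usp5 knockout replicates 1 and 2 was left out (-1.19 to -0.93, adjusted p from 0.05 to 0.0751). Osmr was at 0.58 in the Ythdf1 knockout and not called (edgeR adjusted p = 0.0925).

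Among the ligand-specific gp130 partners, Il6ra, which binds interleukin-6, had 25, 26.1 and 23.8 CPM in the Usp5 knockout. It had 16.7, 17.2 and 18.4 CPM in the Ythdf1 knockout and 24.3, 23.2 and 23.3 CPM in control cells. The Ythdf1 knockout was below the other groups (-0.44 ± 0.079, edgeR adjusted p = 0.00141), and the Usp5 knockout was not called (0.08, 95% interval -0.073 to 0.23). Lifr, the leukaemia inhibitory factor receptor, had 80.7, 82.9 and 92.3 CPM in the Usp5 knockout. This compares with 109.8, 121 and 111 CPM in the Ythdf1 knockout and 88.7, 90.1 and 91.4 CPM in control cells. It rose in the Ythdf1 knockout (0.34 ± 0.076, edgeR adjusted p = 0.00465), with 0.74 after the correction for GC content and length, and was not called with library sizes alone as the scaling (0.20, adjusted p = 0.0866). Il11ra1, the interleukin-11 receptor, had 5.57, 5.21 and 5.7 CPM in the Usp5 knockout, 7.88, 6.93 and 7.37 CPM in the Ythdf1 knockout and 6.36, 7.36 and 4.95 CPM in control cells. It was called in neither knockout against control, and with a close copy, Il11ra2, it can share reads.

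Of the other class I receptors tested, Il2rb and Il13ra1 were lower in both knockouts and Il15ra in the Ythdf1 knockout. Il2rb, the signalling chain shared by interleukin-2 and interleukin-15, stood at 1.9, 1.36 and 1.31 CPM in the Usp5 knockout. The Ythdf1 knockout had 2.41, 2.11 and 1.89 CPM, and control cells had 5.96, 4.88 and 5.47 CPM. All knockout samples lay below all control samples. The log2 fold change was -1.81 ± 0.19 in the Usp5 knockout (edgeR adjusted p = 0.000115) and -1.35 ± 0.19 in the Ythdf1 knockout (edgeR adjusted p = 0.000286). Its usual partner Il2rg had 4 counts in the Usp5 knockout, 7 in the Ythdf1 knockout and 6 in control cells over 3 libraries each. Il15ra, which binds interleukin-15 and presents it to other cells, had 3.19, 2.59 and 2.58 CPM in the Usp5 knockout. Levels were 1.44, 1.26 and 1.1 CPM in the Ythdf1 knockout and 3.09, 3.00 and 2.94 CPM in control cells. Only the Ythdf1 knockout was apart from control cells (-1.24 ± 0.18, edgeR adjusted p = 0.000347; Usp5 knockout -0.10, edgeR adjusted p = 0.697), and the difference between the knockouts was itself called (1.14 ± 0.18, edgeR adjusted p = 0.00056).

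Il13ra1 and Il4ra together form the receptor for interleukin-4 and interleukin-13 on cells outside the blood. Il13ra1 had 7.28, 7.94 and 9.4 CPM in the Usp5 knockout. Ythdf1 knockout samples had 6.99, 6.51 and 7.4 CPM, and control samples had 12.8, 14.8 and 15.9 CPM. Both knockouts were below every control sample, with log2 fold changes of -0.82 ± 0.13 in the Usp5 knockout (edgeR adjusted p = 0.00152) and -1.05 ± 0.13 in the Ythdf1 knockout (edgeR adjusted p = 0.00016). The second was -0.62 after the correction for GC content and length. Il4ra had 13.4, 13.1 and 15.4 CPM in the Usp5 knockout. It had 20.6, 19.99 and 22.6 CPM in the Ythdf1 knockout and 20.5, 19.4 and 15.9 CPM in control cells. It fell in the Usp5 knockout (-0.42 ± 0.12, edgeR adjusted p = 0.0289), a call that was not made in a fit of only both groups (-0.42, adjusted p = 0.0749), or when 1 of control replicates 1 and 2, Usp5 knockout replicates 1 and 2 and Ythdf1 knockout replicate 1 was left out (-0.42 to -0.34, adjusted p from 0.0526 to 0.121). The Il4ra call also ended with a block for the replicate number in the fit. Il12rb1, a chain of the interleukin-12 and interleukin-23 receptors, was under 1 CPM in every sample and was called in neither knockout against control.

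Within class II, both chains of the interferon-gamma receptor were called lower in the Usp5 knockout, Ifngr2 by the wider margin. Ifngr2, which recruits JAK2 to the interferon-gamma receptor, stood at 20.01, 20.3 and 22.2 CPM in the Usp5 knockout. This compares with 37.6, 35 and 38.6 CPM in the Ythdf1 knockout and 41.6, 37.7 and 43 CPM in control cells. The Usp5 knockout was far below both other groups, which overlapped (-0.97 ± 0.085, edgeR adjusted p = 3.87e-05; Ythdf1 knockout -0.14, edgeR adjusted p = 0.208). Set against the Ythdf1 knockout, the Usp5 knockout was lower (-0.83 ± 0.086, edgeR adjusted p = 4.05e-05). Ifngr1, the ligand-binding chain, had 85.7, 87.4 and 94.5 CPM in the Usp5 knockout, 102, 107 and 102 CPM in the Ythdf1 knockout and 102, 105 and 106 CPM in control cells. Its small fall in the Usp5 knockout (-0.23 ± 0.068, edgeR adjusted p = 0.0408) was not called without a filter on low counts (-0.24, adjusted p = 0.128), or in a fit of only both groups (-0.23, adjusted p = 0.111), or when 1 of control replicates 1 and 2, Usp5 knockout replicates 1 and 2 and Ythdf1 knockout replicates 1, 2 and 3 was left out (-0.24 to -0.20, adjusted p from 0.0581 to 0.14). The Ifngr1 call also ended with a block for the replicate number in the fit.

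Of the type I interferon receptor, each chain was called in a different knockout. Ifnar1, one of its chains, had 77.6, 82.6 and 90.3 CPM in the Usp5 knockout. The Ythdf1 knockout had 58, 58.8 and 60.2 CPM, and control cells had 78, 77.6 and 90.9 CPM. It fell in the Ythdf1 knockout (-0.48 ± 0.087, edgeR adjusted p = 0.00149) and was not called in the Usp5 knockout (0.024, 95% interval -0.15 to 0.19). Ifnar2, its high-affinity chain, had 37.7, 34.4 and 35.1 CPM in the Usp5 knockout. Levels were 25.9, 27.4 and 26.9 CPM in the Ythdf1 knockout and 28.2, 28.8 and 29.1 CPM in control cells. It rose in the Usp5 knockout (0.32 ± 0.073, edgeR adjusted p = 0.0126), a call not made with library sizes alone as the scaling (0.23, adjusted p = 0.0632), or without a filter on low counts (0.31, adjusted p = 0.0604), or in a fit of only both groups (0.31, adjusted p = 0.0518), or when 1 of control replicate 1 and Usp5 knockout replicate 1 was left out (0.28 to 0.30, adjusted p from 0.0508 to 0.0582), and was not called in the Ythdf1 knockout (-0.10). Il10rb, the chain shared by interleukin-10, interleukin-22 and type III interferon receptors, was called in neither (-0.10 and -0.23).

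Besides Ifnar2, the class II chain called higher in the Usp5 knockout was Il22ra1. This receptor, which gives hepatocytes their response to interleukin-22, had 20.8, 24.2 and 20.6 CPM in the Usp5 knockout. Ythdf1 knockout samples had 13.9, 17.9 and 15 CPM, and control samples had 11.8, 11.2 and 15.3 CPM. All Usp5 knockout samples were above all others (0.78 ± 0.14, edgeR adjusted p = 0.00374), and the Ythdf1 knockout was not called (0.29, edgeR adjusted p = 0.116). Il20rb, which pairs with Il20ra to bind interleukins 19, 20 and 24, had 0.846, 0.735 and 0.809 CPM in the Usp5 knockout. It had 1.22, 0.996 and 0.718 CPM in the Ythdf1 knockout and 1.82, 1.93 and 1.65 CPM in control cells. It fell in the Usp5 knockout (-1.17 ± 0.23, edgeR adjusted p = 0.00579) and in the Ythdf1 knockout (-0.88 ± 0.23, edgeR adjusted p = 0.00999). Il20ra, at 0.60 to 1.43 CPM, was not called.

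In the interleukin-1 family, the antagonist and the accessory chain were the members called against control. Il1rn, the secreted antagonist that blocks interleukin-1, stood at 6.93, 8.54 and 6.43 CPM in the Usp5 knockout. This compares with 35.5, 45 and 40.3 CPM in the Ythdf1 knockout and 18.9, 18.1 and 28.7 CPM in control cells. The 3 groups were apart, with the Usp5 knockout lowest and the Ythdf1 knockout highest, and control replicate 3 stood above the other controls. Its log2 fold change was -1.58 ± 0.19 in the Usp5 knockout (edgeR adjusted p = 0.000286), 0.89 ± 0.18 in the Ythdf1 knockout (edgeR adjusted p = 0.0025) and -2.46 ± 0.19 between the Usp5 and the Ythdf1 knockout (edgeR adjusted p = 7.19e-06). Il1rap, the accessory chain without which interleukin-1 and interleukin-33 receptors do not signal, had 2.58, 3.64 and 3.24 CPM in the Usp5 knockout, 0.37, 0.536 and 0.604 CPM in the Ythdf1 knockout and 2.31, 2.21 and 2.13 CPM in control cells. In counts the Ythdf1 knockout held 10, 14 and 16, against 104, 95 and 53 in control cells. It fell there (-2.13 ± 0.24, edgeR adjusted p = 8.65e-05). It was at 0.50 in the Usp5 knockout and not called (edgeR adjusted p = 0.0981). Il1r1, the signalling interleukin-1 receptor, had 7.14, 8.05 and 8.75 CPM in the Usp5 knockout. The Ythdf1 knockout had 11.1, 12.4 and 9.29 CPM, and control cells had 7.74, 8.01 and 10.8 CPM. Il18rap, the accessory chain for interleukin-18, had 13.4, 14.2 and 16.4 CPM in the Usp5 knockout. Levels were 8.99, 11.5 and 10.6 CPM in the Ythdf1 knockout and 11.5, 12.6 and 10.6 CPM in control cells. Neither was called against control. Of Il18rap, the ligand-binding partner Il18r1 had at most 4 counts in any sample.

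Of the interleukin-17 receptors, Il17rd was called against control. Il17ra, the common chain, had 23.9, 21.3 and 21.1 CPM in the Usp5 knockout. Ythdf1 knockout samples had 29.6, 22.9 and 24.1 CPM, and control samples had 24.6, 24.1 and 19.97 CPM. It was called in no comparison. Il17rc, its partner for interleukin-17A and interleukin-17F, had 33, 27.8 and 28.7 CPM in the Usp5 knockout. It had 48.9, 38 and 49.3 CPM in the Ythdf1 knockout and 39.1, 39.3 and 26.6 CPM in control cells. Its log2 fold changes of -0.23 in the Usp5 knockout and 0.37 in the Ythdf1 knockout were not called. Il17rd, also known as Sef and an inhibitor of fibroblast growth factor signalling, fell in the Ythdf1 knockout, with 6.22, 5.74 and 7.22 CPM in the Ythdf1 knockout, against 9.34, 9.08 and 7.45 CPM in control cells (-0.44 ± 0.14, edgeR adjusted p = 0.0239), a call not made after the correction for GC content and length (-0.27, adjusted p = 0.176), or when 1 of control replicates 1 and 2 and Ythdf1 knockout replicates 1 and 2 was left out (-0.45 to -0.38, adjusted p from 0.0602 to 0.0781). Csf1r, the macrophage colony-stimulating factor receptor and a receptor tyrosine kinase, was detected at 5.37 ± 0.915 CPM in the Usp5 knockout, 6.26 ± 1.47 CPM in the Ythdf1 knockout and 6.34 ± 0.631 CPM in control cells (SD, n = 3 each) and was called in no comparison.

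Setting the Usp5 knockout directly against the Ythdf1 knockout tests whether the receptors differ between them. The knockouts also differ in the kind of vector used, and its part cannot be told apart from that of the gene lost. Of the 39 genes, 29 were called (74.4%), 12 higher and 17 lower in the Usp5 knockout, beside 48.5% of all genes tested (23.3% higher and 25.2% lower). Without control replicate 3, 31 were called, with 7648 in place of 6627 genes in all. Changes of at least 2-fold were called for 11 (4 higher and 7 lower), beside 12.1% of all genes (5.34% higher and 6.78% lower). The knockouts did not overlap for 29 of the 39, beside 59% of all genes. The 4 higher by at least 2-fold were Tnfrsf11b, with 42 counts against 3 in the Ythdf1 knockout, Il1rap (2.63 ± 0.23, edgeR adjusted p = 1.73e-05), Tnfrsf23 and Il15ra. Lower by the widest margins were Il1rn, Tnfrsf9 (-2.23 ± 0.28, edgeR adjusted p = 0.00013), Fas and Osmr, which had 0.963, 1.4 and 1.46 CPM in the Usp5 knockout, against 3.66, 5.28 and 3.29 CPM in the Ythdf1 knockout (-1.69 ± 0.28, edgeR adjusted p = 0.000767). Tnfrsf19 (-1.20), Tnfrsf12a (-1.06) and Ltbr (-0.73) were lower in the Usp5 knockout as well, with edgeR adjusted p of 4.22e-05, 0.0012 and 5.15e-05. So were Il4ra (-0.59), Il6st (-0.57) and Lifr (-0.42), with edgeR adjusted p of 0.00208, 0.000186 and 0.00139. After the correction for GC content and length Tnfrsf12a was at -0.66, Ltbr at -0.41 and Lifr at -0.77. Il17rd was higher in the Usp5 knockout (0.60, edgeR adjusted p = 0.00484). Ifnar1 (0.50, edgeR adjusted p = 0.00107), Ifnar2 (0.42, edgeR adjusted p = 0.00108) and Il6ra (0.52, edgeR adjusted p = 0.00049) were higher in the Usp5 knockout. Ifnar1 and Ifnar2 lie on chromosome 16, where the median over tested genes was 0.51 in this comparison. Il2rb, Il13ra1 and Il20rb, which fell in both, were not called between the knockouts, with 95% intervals of -0.85 to -0.077, -0.027 to 0.49 and -0.77 to 0.19.

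Of these 29 calls, 10 ended under at least 1 alternative. Il18rap (0.50) was not called after the correction for GC content and length (0.21, adjusted p = 0.158). Il22ra1 (0.49) was not called without Ythdf1 knockout replicate 1 (0.43, adjusted p = 0.0567). Tnfrsf23 (1.52) was not called when 1 of Usp5 knockout replicate 1 and Ythdf1 knockout replicates 1 and 3 was left out (1.15 to 1.53, adjusted p from 0.0522 to 0.0671). For Il17rc (-0.60) the call ended after the correction for GC content and length (-0.19, adjusted p = 0.138), or when 1 of Usp5 knockout replicate 2 and Ythdf1 knockout replicates 1 and 3 was left out (-0.52 to -0.51, adjusted p from 0.0542 to 0.0549). For Il1r1 (-0.46), at -0.80 after the correction for GC content and length, it ended with library sizes alone as the scaling (-0.40, adjusted p = 0.0529), or when 1 of Usp5 knockout replicates 1 and 2 and Ythdf1 knockout replicates 1 and 2 was left out (-0.44 to -0.33, adjusted p from 0.1 to 0.154). The difference of Tnfrsf1a (-0.24) was not called with library sizes alone as the scaling (-0.18, adjusted p = 0.0582), or without a filter on low counts (-0.20, adjusted p = 0.152), or after the correction for GC content and length (0.024, adjusted p = 0.782), or when 1 of Usp5 knockout replicate 2 and Ythdf1 knockout replicates 1 and 3 was left out (each at -0.20, adjusted p from 0.0687 to 0.0932). That of Ifngr1 (-0.22) was not called with library sizes alone as the scaling (-0.16, adjusted p = 0.117), or without a filter on low counts (-0.18, adjusted p = 0.201), or when 1 of Usp5 knockout replicates 1 and 2 and Ythdf1 knockout replicates 1, 2 and 3 was left out (-0.21 to -0.16, adjusted p from 0.0928 to 0.134). Il12rb1 (-1.43), the called gene under 1 CPM, was not called after the correction for GC content and length (-1.23, adjusted p = 0.0565), or when 1 of control replicate 2, Usp5 knockout replicates 1 and 3 and Ythdf1 knockout replicates 1 and 3 was left out (-1.52 to -0.95, adjusted p from 0.0556 to 0.189). The Il12rb1 call also ended with a block for the replicate number in the fit. For Tnfrsf26 (0.40) the call ended without a filter on low counts (0.44, adjusted p = 0.067), or after the correction for GC content and length (0.15, adjusted p = 0.269), or when 1 of control replicate 2, Usp5 knockout replicates 2 and 3 and Ythdf1 knockout replicates 1 and 3 was left out (0.36 to 0.45, adjusted p from 0.0505 to 0.1). Il11ra1 (-0.43) was not called with library sizes alone as the scaling (-0.37, adjusted p = 0.0916), or without a filter on low counts (-0.39, adjusted p = 0.0869), or after the correction for GC content and length (-0.13, adjusted p = 0.409), or when 1 of Usp5 knockout replicates 1, 2 and 3 and Ythdf1 knockout replicates 1, 2 and 3 was left out (-0.45 to -0.35, adjusted p from 0.0597 to 0.149). The Il11ra1 call also ended with a block for the replicate number in the fit.

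Because most of these receptors work as pairs, the ratio of partner chains was computed per length within each sample. The interferon-gamma receptor held 0.155 to 0.157 Ifngr2 per Ifngr1 transcript in the Usp5 knockout, 0.219 to 0.253 in the Ythdf1 knockout and 0.239 to 0.273 in control cells, so Ifngr2 was the scarcer chain everywhere and scarcest in the Usp5 knockout. For the type I interferon receptor the ratio of Ifnar1 to Ifnar2 was 0.797 to 0.995 in the Usp5 knockout, 0.829 to 0.867 in the Ythdf1 knockout and 1.04 to 1.21 in control cells. Il6ra per Il6st was 0.619 to 0.683 in the Usp5 knockout, 0.290 to 0.310 in the Ythdf1 knockout and 0.340 to 0.359 in control cells. Lifr per Il6st was 1.77 to 2.14 in the Usp5 knockout, 1.66 to 1.81 in the Ythdf1 knockout and 1.17 to 1.19 in control cells. The control range lay below both knockouts for Lifr and between them for Il6ra. For the interleukin-1 receptor, Il1rap per Il1r1 was 0.490 to 0.612 in the Usp5 knockout, 0.0451 to 0.0881 in the Ythdf1 knockout and 0.267 to 0.405 in control cells. Il13ra1 per Il4ra was 0.566 to 0.637 in the Usp5 knockout, 0.340 to 0.355 in the Ythdf1 knockout and 0.650 to 1.04 in control cells. The interleukin-22 receptor had 0.652 to 1.01 Il22ra1 per Il10rb in the Usp5 knockout, 0.533 to 0.717 in the Ythdf1 knockout and 0.400 to 0.480 in control cells. These ratios are of transcripts, and surface protein was not measured.

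**Figure D4:**
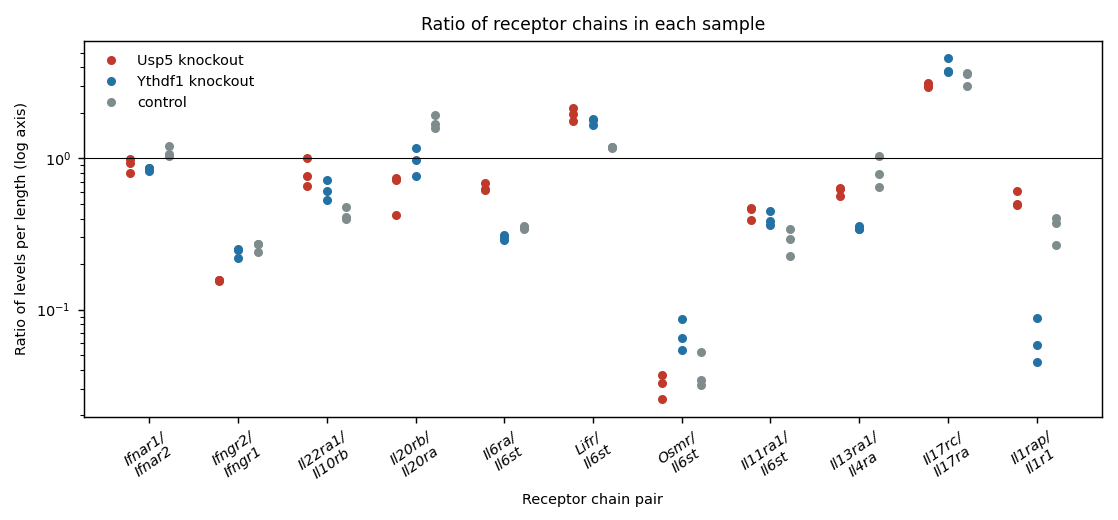
Ratio of levels per length of partner receptor chains in each of the 9 samples (log axis; 1 point per sample, line at 1). Il1rap per Il1r1 is lowest in the Ythdf1 knockout (0.0451 to 0.0881), Ifngr2 per Ifngr1 is lowest in the Usp5 knockout (0.155 to 0.157), and Il6ra per Il6st is highest in the Usp5 knockout.

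Ifnar2, Il10rb, Ifnar1 and Ifngr2 lie next to one another on chromosome 16, in this order and with no other protein-coding gene between them, and Il1rap lies on the same chromosome. Values of chromosome 16 are given beside them because many of its genes shifted in the same direction. Of 364 tested genes placed there, 146 were higher and 7 lower in the Usp5 knockout, with a median log2 fold change of 0.31, beside -0.024 over 11477 genes placed on the other autosomes or X. In the Ythdf1 knockout 49 were higher and 129 lower, with a median of -0.14, beside 0.042. Ifngr2 was 1 of the 7 lower genes of the chromosome in the Usp5 knockout and stood 1.28 below its median. Ifnar2, at 0.32, differed from that median by 0.0094, and Ifnar1 and Il10rb stood 0.28 and 0.41 below it. In the Ythdf1 knockout Ifnar1 fell by 0.48, which is 0.34 below the median of the chromosome, and Ifnar2 and Ifngr2 differed from it by 0.039 and 0.0043. Il1rap stood 1.99 below the median there, with 1 chromosome 16 gene lower still. Between the knockouts 237 genes of the chromosome were higher and 18 lower in the Usp5 knockout, with a median of 0.51, beside -0.032. Relative to that median Ifnar1 was at -0.0125, Ifnar2 at -0.094, Il10rb at -0.39, Ifngr2 at -1.35 and Il1rap at 2.12. The part of the chromosome-wide shift in these values was not tested.

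**Figure D5:**
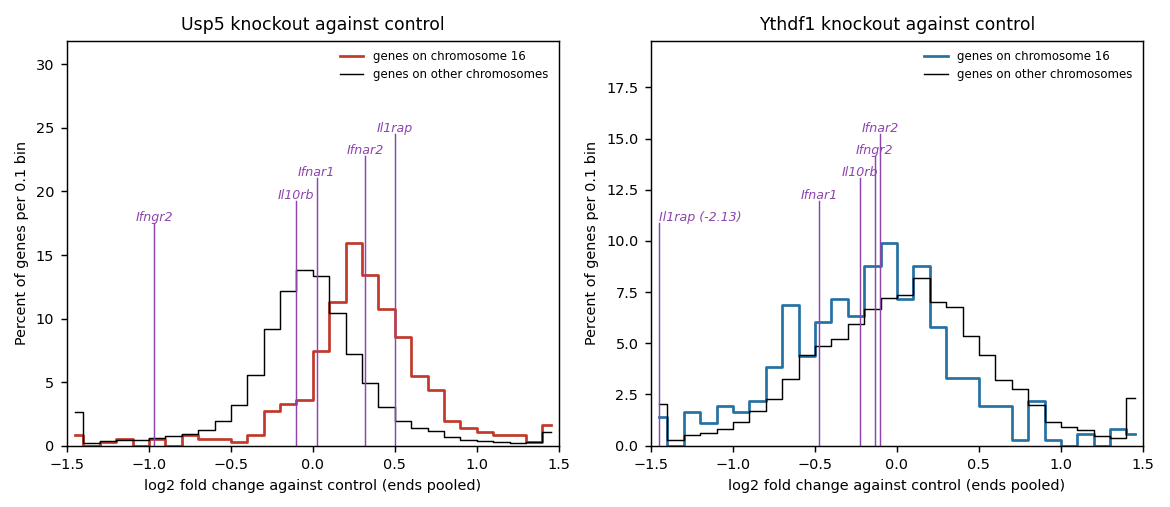
Distribution of log2 fold changes against control for 364 genes on chromosome 16 (coloured line) and 11477 genes on other chromosomes (black line), in percent of genes per bin of 0.1, with values past the ends of the axis pooled in the end bins; vertical lines mark the 5 receptor genes on chromosome 16. In the Usp5 knockout the chromosome lies to the right of the others (median 0.31) and Ifngr2 far to the left of both.

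Promoter windows are shown for 6 of the 9 genes called in both knockouts, since these genes were called in the same direction or in opposite directions in the knockouts. RefSeq windows (GRCm38.p6, 250 bases before to 50 after a transcription start) matched 61 of the 73 genes by symbol. Il2rb and Tnfrsf11b had none in that table, and Tnfrsf19 is not shown. Where a gene has several windows, 1 is printed: for Tnfrsf9 and Il1rn, one that holds a kB match. All windows are read 5′ to 3′ on the gene's strand. Capitals mark 3 motifs searched on both strands: GGG and TTTCC with 2 bases of any kind between them for an NF-kB site, TTCNNNGAA for a STAT site and TGACTCA for an AP-1 site. Lower in both knockouts were the genes of the first 4 windows, although the Il6st call in the Ythdf1 knockout was not kept under all alternatives.
Tnfrsf9, chr4:150927749-150928048, plus strand: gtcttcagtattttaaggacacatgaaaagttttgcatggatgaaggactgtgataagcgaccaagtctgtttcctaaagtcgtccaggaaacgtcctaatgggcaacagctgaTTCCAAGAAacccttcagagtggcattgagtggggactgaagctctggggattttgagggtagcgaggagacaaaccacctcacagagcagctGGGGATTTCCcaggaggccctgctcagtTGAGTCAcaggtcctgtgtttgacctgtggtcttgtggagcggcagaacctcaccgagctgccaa
Il6st, chr13:112463820-112464119, plus strand: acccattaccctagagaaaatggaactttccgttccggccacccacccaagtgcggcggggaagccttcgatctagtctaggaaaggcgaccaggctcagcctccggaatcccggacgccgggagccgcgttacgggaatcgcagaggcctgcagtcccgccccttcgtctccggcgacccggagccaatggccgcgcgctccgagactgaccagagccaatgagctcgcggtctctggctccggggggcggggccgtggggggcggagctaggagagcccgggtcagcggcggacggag
Il13ra1, chrX:36111858-36112157, plus strand: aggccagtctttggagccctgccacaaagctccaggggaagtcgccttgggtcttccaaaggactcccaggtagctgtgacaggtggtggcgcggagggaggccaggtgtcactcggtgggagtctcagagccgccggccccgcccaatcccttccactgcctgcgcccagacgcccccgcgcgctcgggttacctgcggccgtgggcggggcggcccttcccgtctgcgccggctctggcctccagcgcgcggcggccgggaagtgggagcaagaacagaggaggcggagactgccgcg
Il20rb, chr9:100486424-100486723, minus strand: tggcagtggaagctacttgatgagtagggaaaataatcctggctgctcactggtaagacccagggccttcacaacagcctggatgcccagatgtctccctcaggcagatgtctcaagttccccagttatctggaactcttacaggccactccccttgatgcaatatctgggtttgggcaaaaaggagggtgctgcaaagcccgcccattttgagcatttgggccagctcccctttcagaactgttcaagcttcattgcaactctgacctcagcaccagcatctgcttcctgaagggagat
Fas, chr19:34290409-34290708, plus strand: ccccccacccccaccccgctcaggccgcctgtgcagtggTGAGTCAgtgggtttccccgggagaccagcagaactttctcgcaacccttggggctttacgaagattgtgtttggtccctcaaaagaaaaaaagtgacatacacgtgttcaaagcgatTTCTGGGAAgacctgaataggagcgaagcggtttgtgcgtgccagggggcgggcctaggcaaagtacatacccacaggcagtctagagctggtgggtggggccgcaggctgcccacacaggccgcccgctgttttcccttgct
Il1rn, chr2:24345121-24345420, plus strand: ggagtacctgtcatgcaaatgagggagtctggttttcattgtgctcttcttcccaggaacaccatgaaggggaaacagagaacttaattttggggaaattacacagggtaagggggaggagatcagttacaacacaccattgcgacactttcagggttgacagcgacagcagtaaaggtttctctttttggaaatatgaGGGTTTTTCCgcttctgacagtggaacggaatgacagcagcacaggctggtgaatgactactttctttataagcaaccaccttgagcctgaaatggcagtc

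The printed Tnfrsf9 window held 1 match each of the NF-kB, STAT and AP-1 letters, and its other window held none. The Fas window held 1 STAT and 1 AP-1 match, and the printed Il1rn window 1 NF-kB match. Of the other 2 windows of Il1rn, 1 overlaps the printed one and holds the same match, and the other holds 1 AP-1 match and none of the NF-kB letters. No match of the 3 motifs was in the windows of Il6st, Il13ra1 and Il20rb. Over all 32851 RefSeq windows, 1.63% held the NF-kB letters, 8.3% the STAT letters and 5.2% the AP-1 letters. Of the 31 tested receptor genes with a window, 5 held the NF-kB letters, 8 the STAT letters and 5 the AP-1 letters in at least 1 of their windows. These numbers count genes while the shares above count windows, so they cannot be set against each other. A share per gene over all genes was not computed. The motifs were chosen with these results known, several receptor genes have more than 1 window, and a match describes letters and not a bound site.

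The ligands of these receptors were examined as a list of 65 genes in the table, of which 21 were tested. In the Usp5 knockout 2 were higher and 9 lower, 52.4% of those tested beside 19.8% of all genes (median log2 fold change -0.43, beside -0.012 over all genes). In the Ythdf1 knockout 10 were higher and 3 lower, 61.9% beside 46.5% (median 0.37, beside 0.021). In the Usp5 knockout the ligand of Ltbr, Ltb (lymphotoxin beta), was at -4.81 ± 0.27 (edgeR adjusted p = 2.27e-06) and the TNF family ligand Tnfsf15 at -3.76 ± 0.29 (edgeR adjusted p = 1.78e-05), while the alarmin Il33 rose by 1.19 ± 0.18 (edgeR adjusted p = 0.00106). Il24, which acts through Il20rb, rose by 0.58 ± 0.16 (edgeR adjusted p = 0.0304) but was not called in a fit of only both groups (0.58, adjusted p = 0.066), or when 1 of control replicates 1 and 2, Usp5 knockout replicates 2 and 3 and Ythdf1 knockout replicate 3 was left out (0.46 to 0.59, adjusted p from 0.0502 to 0.125). Il24 also rose in the Ythdf1 knockout, by 1.14 ± 0.16 (edgeR adjusted p = 0.00034). In the Ythdf1 knockout Il11, a gp130 cytokine, rose by 1.74 ± 0.31 (edgeR adjusted p = 0.00133) and Csf2 by 1.39 ± 0.22 (edgeR adjusted p = 0.000671). Both were lower in the Usp5 knockout: Csf2 was at -2.72 ± 0.28 (edgeR adjusted p = 9.42e-05) and Il11 at -1.85 ± 0.42 (edgeR adjusted p = 0.0122), the Il11 call not being made when 1 of control replicate 1 and Usp5 knockout replicate 1 was left out (-1.69 to -1.505, adjusted p from 0.0571 to 0.058). The counts of Il11 were low, 11 in the Usp5 knockout, 113 in the Ythdf1 knockout and 48 in control cells, each over 3 libraries. Neither receptor chain of Csf2 was tested. Ltb was at -0.996 ± 0.20 in the Ythdf1 knockout (edgeR adjusted p = 0.00274) and Tnfsf15 at -0.79 ± 0.23 (edgeR adjusted p = 0.0154), which was not called after the correction for GC content and length (-0.37, adjusted p = 0.168), or when 1 of control replicate 2 and Ythdf1 knockout replicates 1 and 3 was left out (-0.79 to -0.69, adjusted p from 0.0527 to 0.0753).

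Of 28 JAK, STAT and SOCS pathway genes, 27 were tested; 4 were higher and 2 lower in the Usp5 knockout, and 5 higher and 5 lower in the Ythdf1 knockout (medians -0.062 and -0.0062). The called shares, 22.2% and 37%, were near and below those of all genes (19.8% and 46.5%). Socs3, the feedback inhibitor that binds gp130, fell in the Usp5 knockout (-0.88 ± 0.11, edgeR adjusted p = 0.000462). It was at -0.33 ± 0.11 in the Ythdf1 knockout (edgeR adjusted p = 0.0343), not called when 1 of control replicates 1 and 2 and Ythdf1 knockout replicate 2 was left out (-0.32 to -0.26, adjusted p from 0.0729 to 0.107), and at -0.64 after the correction for GC content and length. Jak2, the kinase that works with Ifngr2 and gp130 among others, fell in the Ythdf1 knockout (-1.25 ± 0.12, edgeR adjusted p = 3.39e-05). Socs6 was at -0.47 ± 0.085 there (edgeR adjusted p = 0.00144), a call not made after the correction for GC content and length (-0.041, adjusted p = 0.813). Cish, another feedback inhibitor, rose in the Ythdf1 knockout by 1.24 ± 0.14 (edgeR adjusted p = 8.91e-05) and Usp18, which restrains Ifnar2 signalling, by 0.71 ± 0.088 (edgeR adjusted p = 0.000163). Usp18 rose in the Usp5 knockout as well, by 0.43 ± 0.088 (edgeR adjusted p = 0.00738). Socs1 was at 0.86 ± 0.24 in the Usp5 knockout (edgeR adjusted p = 0.0283), not called when 1 of control replicates 1 and 2 and Usp5 knockout replicates 1 and 2 was left out (0.66 to 0.91, adjusted p from 0.0695 to 0.12). The phosphatase gene Ptpn6 was at 0.47 ± 0.10 (edgeR adjusted p = 0.0117), not called without control replicate 2 (0.38, adjusted p = 0.0558), and Jak3 at -0.44 ± 0.11 (edgeR adjusted p = 0.02), not called in a fit of only both groups (-0.45, adjusted p = 0.0526), or when 1 of control replicate 1 and Usp5 knockout replicate 2 was left out (-0.37 to -0.35, adjusted p from 0.0784 to 0.0831). Jak3, the kinase that binds the common gamma chain, also fell in the Ythdf1 knockout (-0.45 ± 0.11, edgeR adjusted p = 0.00744; -0.68 after the correction for GC content and length).

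All 24 adaptors and effectors of TNF receptors on the list were tested. All 9 called in the Usp5 knockout were lower (median -0.21), and in the Ythdf1 knockout 6 were higher and 6 lower (median -0.033). These are 37.5% and 50% of the list, beside 19.8% and 46.5% of all genes, the second a share near the background. Traf1, an NF-kB-induced adaptor that binds 4-1BB, fell in the Usp5 knockout (-3.76 ± 0.31, edgeR adjusted p = 2.51e-05), as did Map3k14, which encodes the NIK kinase below Ltbr (-1.13 ± 0.068, edgeR adjusted p = 3.59e-06). Traf3, which holds NIK down, fell in both knockouts (-1.02 ± 0.096 in the Usp5 knockout, edgeR adjusted p = 5.66e-05, and -0.93 ± 0.096 in the Ythdf1 knockout, edgeR adjusted p = 5.58e-05). Birc2, a ubiquitin ligase of the same complex, fell in the Ythdf1 knockout (-0.83 ± 0.13, edgeR adjusted p = 0.000671; -0.53 after the correction for GC content and length). In the Usp5 knockout it was at -0.47 ± 0.13 (edgeR adjusted p = 0.0295), not called in a fit of only both groups (-0.48, adjusted p = 0.0521), or when 1 of control replicates 1 and 2, Usp5 knockout replicates 1 and 2 and Ythdf1 knockout replicate 1 was left out (-0.48 to -0.39, adjusted p from 0.0541 to 0.126). The Birc2 call in the Usp5 knockout also ended with a block for the replicate number in the fit. Bid, which carries a death receptor signal to mitochondria, rose in the Ythdf1 knockout by 0.42 ± 0.081 (edgeR adjusted p = 0.00197), with 0.27 after the correction for GC content and length and 0.28 with library sizes alone. Traf1 was at 0.78 ± 0.23 there (edgeR adjusted p = 0.0189), not called with library sizes alone as the scaling (0.63, adjusted p = 0.0568), or after the correction for GC content and length (0.51, adjusted p = 0.0539), or when 1 of Ythdf1 knockout replicates 1 and 3 was left out (0.65 to 0.71, adjusted p from 0.0751 to 0.0927).

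Of the 18 adaptors of interleukin-1 and interleukin-17 receptors, all tested, 3 were higher and 1 lower in the Usp5 knockout, and 6 higher and 4 lower in the Ythdf1 knockout (medians 0.042 and -0.059). The called shares were 22.2% and 55.6%, beside 19.8% and 46.5% of all genes. Irak3, a brake on interleukin-1 signalling, rose by 0.82 ± 0.18 in the Usp5 knockout (edgeR adjusted p = 0.00934) and by 0.84 ± 0.18 in the Ythdf1 knockout (edgeR adjusted p = 0.00343). Traf3ip2, the interleukin-17 receptor adaptor Act1, rose in the Usp5 knockout (0.62 ± 0.087, edgeR adjusted p = 0.000817), and the RNase gene Zc3h12a, which destroys inflammatory transcripts, fell (-0.99 ± 0.11, edgeR adjusted p = 0.00021). Zc3h12a fell in the Ythdf1 knockout too (-0.50 ± 0.11, edgeR adjusted p = 0.00459; -0.82 after the correction for GC content and length). Traf3ip2 was there at 0.30 ± 0.088 (edgeR adjusted p = 0.017), not called with library sizes alone as the scaling (0.16, adjusted p = 0.179), or without a filter on low counts (0.25, adjusted p = 0.137), or after the correction for GC content and length (0.18, adjusted p = 0.132), or when 1 of control replicate 2 and Ythdf1 knockout replicates 1, 2 and 3 was left out (0.25 to 0.29, adjusted p from 0.0549 to 0.102). In the Ythdf1 knockout Nfkbiz fell (-1.29 ± 0.14, edgeR adjusted p = 8.81e-05), as did Map3k7, the kinase TAK1 (-0.60 ± 0.097, edgeR adjusted p = 0.000749). Traf4 rose by 0.80 ± 0.13 (edgeR adjusted p = 0.000806). After the correction for GC content and length Map3k7 was at -0.26 and Traf4 at 0.46.

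Receptors of the same families whose symbols fall outside the rule gave 9 tested genes of 16, with 1 higher and 3 lower in the Usp5 knockout and 4 higher and 1 lower in the Ythdf1 knockout (medians -0.17 and 0.28), or 44.4% and 55.6% called beside 19.8% and 46.5% of all genes. The erythropoietin receptor Epor fell in the Usp5 knockout (-0.95 ± 0.19, edgeR adjusted p = 0.00672), as did the TNF receptor Cd40 (-0.90 ± 0.17, edgeR adjusted p = 0.0051). In the Ythdf1 knockout Relt rose by 0.90 ± 0.15 (edgeR adjusted p = 0.00074) and Crlf3 fell (-0.53 ± 0.1, edgeR adjusted p = 0.00183).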

How the data were processed

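mRNA libraries of 9 samples were analysed. The authors deposited 1 table of estimated counts per gene, written as whole numbers and not normalized, with gene lengths; per the submitters' processing notes fastp 0.23.2, STAR 2.7.10a, Salmon 1.9.0 and GRCm39 were used, with roles and strand setting not given in the sources used here. Genes that overlap on opposite strands or have near-identical copies can therefore share counts. Because the labels do not say that the samples of a group came from separate cultures, p-values measure only how far these samples spread, which may be technical variation.

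The quasi-likelihood test of edgeR 4.0.16 (R 4.3.3) was run on the deposited counts (TMM, filterByExpr) in 1 fit over all 9 samples with group as the only term, adjusted by Benjamini-Hochberg over all 13661 genes tested. The receptor genes, their families, the gene lists, the rule for named genes and the motifs were chosen with earlier results of these data known. Receptor genes called in any comparison with a mean of at least 1 CPM are described with values, and from each list up to 2 called genes per direction. Intervals of log2 fold changes are the value ± 1.96 SE. Alternatives were RLE scaling, library sizes alone, no filter, a stricter filter, fits restricted to the 2 groups of a comparison, a block for the replicate number, DESeq2 1.42.0, limma-voom (limma 3.58.1) and leaving out each sample; the correction for smooth trends on GC content and length (GC values for 13642 of the 13661 genes, 39 of 39 receptors) was added after results were known. Chromosome and gene order came from RefSeq GRCm38.p6, another build than the counts, by symbol. The test was tried on simulated counts. Some items are not reported here.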

Additional observations from a re-analysis of the deposited data

How the results depend on the processing

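The number of receptor genes called was 17 in the Usp5 knockout, 19 in the Ythdf1 knockout and 29 between the knockouts, and stayed within 1.5 times of these under every alternative run; leaving out 1 sample gave 12 to 19, 17 to 23 and 21 to 31. Of these calls, 12, 13 and 19 were kept under all alternatives that could test the gene. The count over all genes was less steady in the Usp5 knockout: 2700 genes became 1756 in a fit of only both groups and 1494 to 4371 when 1 sample was left out (it was 1736 without the first control sample, 1494 without the second, 4371 without the third, and 1626 without the second Usp5 knockout sample). Leaving out 1 sample gave 4848 to 6479 in place of 6350 in the Ythdf1 knockout and 5002 to 7648 in place of 6627 between the knockouts. A steady count can hold other genes. After the correction for GC content and length, 15 of 21 receptor calls in the Ythdf1 knockout were shared with the main fit, as were 4253 of 5824 in all. In the Usp5 knockout 17 of 20 and 2473 of 3446 were shared, and between the knockouts 23 of 25 and 5141 of 6627.

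Library sizes alone moved the median of all genes by -0.14 in the Ythdf1 knockout, with 2159 genes higher and 4185 lower in place of 3231 and 3119, and 4 receptor genes higher and 16 lower in place of 7 and 12; in the Usp5 knockout 1026 genes were higher and 1833 lower in place of 1361 and 1339, and between the knockouts 3674 were higher and 2870 lower in place of 3188 and 3439. The correction for GC content and length turned 3 called values: Il6st (0.051, adjusted p = 0.585) and Tnfrsf1a (-0.071, adjusted p = 0.418) in the Ythdf1 knockout, and Tnfrsf1a between the knockouts (0.024, adjusted p = 0.782); the cause was not tested.

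Same-numbered samples had correlations of deviations from group means between -0.257 and 0.298. Differently numbered samples were not set beside them, so these values do not settle whether the numbers pair the samples. With a replicate block 15, 19 and 27 receptor genes and 2346, 6198 and 6458 genes in all were called. The block ended the calls of Ifngr1 (-0.23, adjusted p = 0.0654), Il4ra (-0.42, adjusted p = 0.0544) and, outside the receptors, Birc2 (-0.46, adjusted p = 0.0537) in the Usp5 knockout, and of Il12rb1 (-1.42, adjusted p = 0.0682) and Il11ra1 (-0.43, adjusted p = 0.054) between the knockouts, and no other call of a named gene. Of receptor genes not called, 7 of 22, 9 of 20 and 2 of 10 changed sign in at least 1 alternative, none of them called after it, and 5, 8 and 3 were called in some alternative. Of 47 named ligand, adaptor and target values, 36 kept their call throughout. For Il12rb1 (19, 43 and 61 counts in the Usp5 knockout, the Ythdf1 knockout and control cells) and Tnfrsf18 (56, 21 and 67) the depth limits what can be seen.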
